A study of Mus musculus with 4 samples.

Results

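The 35 genes described here encode enzymes, regulators and a carrier of cholesterol and fatty acid synthesis that are controlled by the sterol regulatory element-binding proteins (SREBPs). They were chosen by name, as the rows whose NCBI gene identifier is that of the mouse gene, and all 35 were found among the 15935 gene identifiers listed in any of the 4 libraries. By role, 18 were enzymes of the sterol branch, which runs through mevalonate to cholesterol, and 11 were enzymes that make, elongate or desaturate fatty acids or supply their building blocks. Another 5 were regulators of the pathway, and 1, Stard4, encodes a sterol carrier protein. SREBPs are made as precursors held in the endoplasmic reticulum by SCAP and the INSIG proteins. When membrane sterol is low, SCAP escorts the precursor to the Golgi, where it is cleaved, and the released fragment enters the nucleus and turns on genes of both branches. SREBP-2, from Srebf2, acts mainly on sterol genes, and SREBP-1c, one product of Srebf1, mainly on fatty acid genes. In macrophages the liver X receptors, which oxysterols activate, work in the opposite sense on cholesterol by driving its export.

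RNA was sequenced from bone marrow-derived macrophages of adult C57BL/6 mice, grown for 5 days in medium conditioned with M-CSF, the macrophage growth factor. The 4 groups were KO NT, Ezh2-deficient cells left without treatment, WT NT, wild-type cells left without treatment, KO LPS, Ezh2-deficient cells given lipopolysaccharide (LPS) for 2 h, and WT LPS, wild-type cells given LPS for 2 h. LPS, a component of bacterial outer membranes, activates Toll-like receptor 4, and Ezh2 is a catalytic subunit of Polycomb repressive complex 2, a histone methyltransferase that silences genes. The KO genotype, labelled EZH2-/-, combined a floxed Ezh2 allele with Cre recombinase under the lysozyme M promoter, so the deletion depends on Cre expression in myeloid cells. The labels give neither the number of mice, the LPS dose, the exons removed, nor whether the WT mice carried Cre. Whether the NT and LPS cells were split from the same culture is likewise not stated. Every group is a single library, so differences have no replicates behind them and p-values are not given.

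The summed expected count, an estimate of the reads assigned to genes, was 5668826 in KO NT, 5678451 in WT NT, 5237782 in KO LPS and 5635004 in WT LPS. The 35 genes took 0.280% of it in KO NT, 0.449% in WT NT, 0.293% in KO LPS and 0.390% in WT LPS. Ezh2 itself had 2.06 FPKM (fragments per kilobase of gene and per unit of library size) in KO NT, 2.84 FPKM in WT NT, 1.29 FPKM in KO LPS and 2.52 FPKM in WT LPS, a value over the whole gene that includes any reads from exons left in place. Its ratio of KO to WT was 0.725 (0.442 to 1.18) without LPS, an interval that includes 1, and 0.512 (0.275 to 0.919) with LPS. LPS brought the cytokine gene Tnf to 2135 FPKM in KO LPS, against 21.1 FPKM in KO NT, and to 4172 FPKM in WT LPS, against 25.2 FPKM in WT NT. The 8 macrophage markers summed to between 3151 and 3543 FPKM in every library, but single markers differed between genotypes. Adgre1 and Itgam were higher in KO, with KO to WT ratios of 1.37 and 1.37 without LPS and 1.31 and 1.36 with it. Without LPS Lyz2 was at 1.61 (1.19 to 2.23) and Mertk at 1.17 (1.03 to 1.33), and with LPS their intervals included 1. Others were lower in KO LPS than WT LPS, with intervals below 1, namely Fcgr1 at 0.815, Cd14 at 0.933 and Csf1r at 0.966. Between NT and LPS the members of the macrophage sum moved apart. Cd14 rose from 334 to 1178 FPKM in KO and from 323 to 1263 FPKM in WT. Lyz2 was also higher with LPS, and the other macrophage markers had lower FPKM. The 8 neutrophil markers summed to 633 FPKM in KO NT, 371 FPKM in WT NT, 553 FPKM in KO LPS and 404 FPKM in WT LPS. The sum was thus higher in both KO libraries. S100a8 and S100a9 made up most of it, at 219 and 282 FPKM in KO NT. Ltf, Ngp, Camp and Elane were also higher in KO in both states. Mpo was lower in KO NT than WT NT, at 3.56 against 4.24 FPKM, and higher in KO LPS than WT LPS. Ly6g, at 1.18 FPKM or less, was lower in KO in both states. Among markers of adipocytes, a cell type rich in these enzymes, Adipoq, Plin1, Lep, Retn and Cfd were not listed in any library, and Fabp4, which macrophages also express, made up nearly all of that list's sum of 48.9 to 83.1 FPKM. The 8 fibroblast markers were at 2.29 FPKM or less each. They summed to 4.82 FPKM in KO NT, 8.05 FPKM in WT NT, 4.89 FPKM in KO LPS and 8.81 FPKM in WT LPS. The collagens Col1a1, Col1a2 and Col3a1 were lower in both KO libraries. Going the other way, Pdgfrb was at 1.22 FPKM in KO LPS against 0.91 FPKM in WT LPS. Dcn was at 0.48 FPKM in KO NT against 0.29 FPKM in WT NT. Both intervals included 1. The T-cell markers Cd3e, Cd3g and Trac were not listed, while Cd4 was at 12.4 FPKM in KO NT, 7.70 FPKM in WT NT, 9.03 FPKM in KO LPS and 5.82 FPKM in WT LPS.

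Promoter sequences were available from RefSeq (GRCm38.p6) for 28 of the 35 genes, in 37 windows of 250 bases that end just before an annotated transcript start. None was available for Sqle, Fdps, Fdft1, Scd1, Scd2, Fads1 and Stard4. The sterol windows thus came from 15 genes and the fatty acid windows from 8. Each window was searched on both strands for CCAAT, the box bound by the factor NF-Y, for GGGCGG, the box of SP1, and for TCACNCCAC, a form of the sterol regulatory element. These motifs were chosen because NF-Y and SP1 are the known partners of SREBPs at such promoters. CCAAT was present in 14 of 18 sterol windows (77.8%), 3 of 9 fatty acid windows (33.3%) and 5 of 10 windows of the regulators, against 33.8% of all 32536 RefSeq windows of that length. Among the 11345 windows of genes with at least 1 FPKM in any library, 35.3% held it. GGGCGG was present in 15 of 18 sterol windows (83.3%), 3 of 9 fatty acid windows and 7 of 10 windows of the regulators, against 33.0% of all windows and 57.0% of those of expressed genes. TCACNCCAC was found in 1 of the 37 windows, that of Hmgcs1, and in 340 of all 32536. Windows of 1 gene can overlap, and a match describes these letters without showing that a factor binds there. Examples follow, 5′ to 3′ on the gene's strand, with CCAAT or its reverse complement ATTGG and, in Hmgcs1, TCACCCCAC in capitals. Hmgcs1 and Mvd stand for the sterol branch, Insig1 for the regulator whose level went with it, and Fasn for the fatty acid branch.
Hmgcs1: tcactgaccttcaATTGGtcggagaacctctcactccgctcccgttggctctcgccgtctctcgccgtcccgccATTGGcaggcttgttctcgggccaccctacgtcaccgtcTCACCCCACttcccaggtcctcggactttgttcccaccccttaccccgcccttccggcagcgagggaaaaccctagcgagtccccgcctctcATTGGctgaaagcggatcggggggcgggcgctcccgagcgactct
Mvd: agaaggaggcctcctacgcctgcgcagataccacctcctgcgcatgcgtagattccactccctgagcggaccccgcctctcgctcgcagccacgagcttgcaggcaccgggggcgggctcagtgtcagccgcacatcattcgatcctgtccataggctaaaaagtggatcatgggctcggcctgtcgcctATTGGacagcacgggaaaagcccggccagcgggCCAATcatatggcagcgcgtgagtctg
Insig1: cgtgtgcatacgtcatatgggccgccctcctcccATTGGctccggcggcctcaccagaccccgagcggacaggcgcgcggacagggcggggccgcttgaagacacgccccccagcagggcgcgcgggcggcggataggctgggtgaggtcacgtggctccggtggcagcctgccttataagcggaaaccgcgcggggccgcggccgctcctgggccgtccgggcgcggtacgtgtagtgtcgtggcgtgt
Fasn: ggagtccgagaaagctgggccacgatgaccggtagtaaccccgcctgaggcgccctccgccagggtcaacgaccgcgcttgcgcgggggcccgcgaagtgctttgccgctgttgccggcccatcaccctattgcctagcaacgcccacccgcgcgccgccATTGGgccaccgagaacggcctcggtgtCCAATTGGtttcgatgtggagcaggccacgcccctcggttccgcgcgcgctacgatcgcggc
The Hmgcs1 window lies at chr13:119690101-119690350 on the plus strand and holds 3 CCAAT boxes, with the sterol element starting at base -137 counted from the transcript start. The Mvd window lies at chr8:122443423-122443672 on the minus strand and holds 2 CCAAT boxes, both within 60 bases of the start. The Insig1 window, at chr5:28071162-28071411 on the plus strand, holds 1. The Fasn window, at chr11:120824548-120824797 on the minus strand, holds 3, of which a pair on opposite strands overlap.

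Without LPS, KO macrophages had less RNA from nearly the whole pathway than WT macrophages. Of the 35 genes 34 were lower in KO NT than WT NT, against 46.2% of the 10990 genes compared, and Scap was the exception. The sterol branch summed to 528.5 FPKM in KO NT against 872 FPKM in WT NT, and the fatty acid branch to 164 FPKM in KO NT against 272 FPKM in WT NT. Differences are given as the ratio of FPKM with an exact 95% interval that covers counting error only. For 28 of the 35 genes that interval lay wholly below 1, against 11.6% of all genes compared and 13.1% of those with at least 50 expected counts in either library, and for 1 gene it lay above 1, against 14.1%. On the scale log2 of (FPKM + 1) over (FPKM + 1), which understates the folds of low genes, the median was -0.71 for the sterol branch, -0.66 for the fatty acid branch and 0.018 for all genes with at least 1 FPKM in either library. Only 4 of the 35 were at least 2-fold lower on that scale, namely Scd2, Scd1, Acat2 and Fdps, against 0.883% of all genes, and 0 were at least 2-fold higher, against 0.928%. Scd1 and Elovl6 reached 1 FPKM in WT NT but not in KO NT, so they could enter these counts only as lower in KO. In bulk RNA, fewer cells that express a gene and less RNA per cell cannot be told apart. The summed neutrophil markers were higher in KO NT, at 633 FPKM against 371 FPKM in WT NT, and the fibroblast collagens were lower. Their part in the difference of the pathway was not tested.

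**Figure D1:**
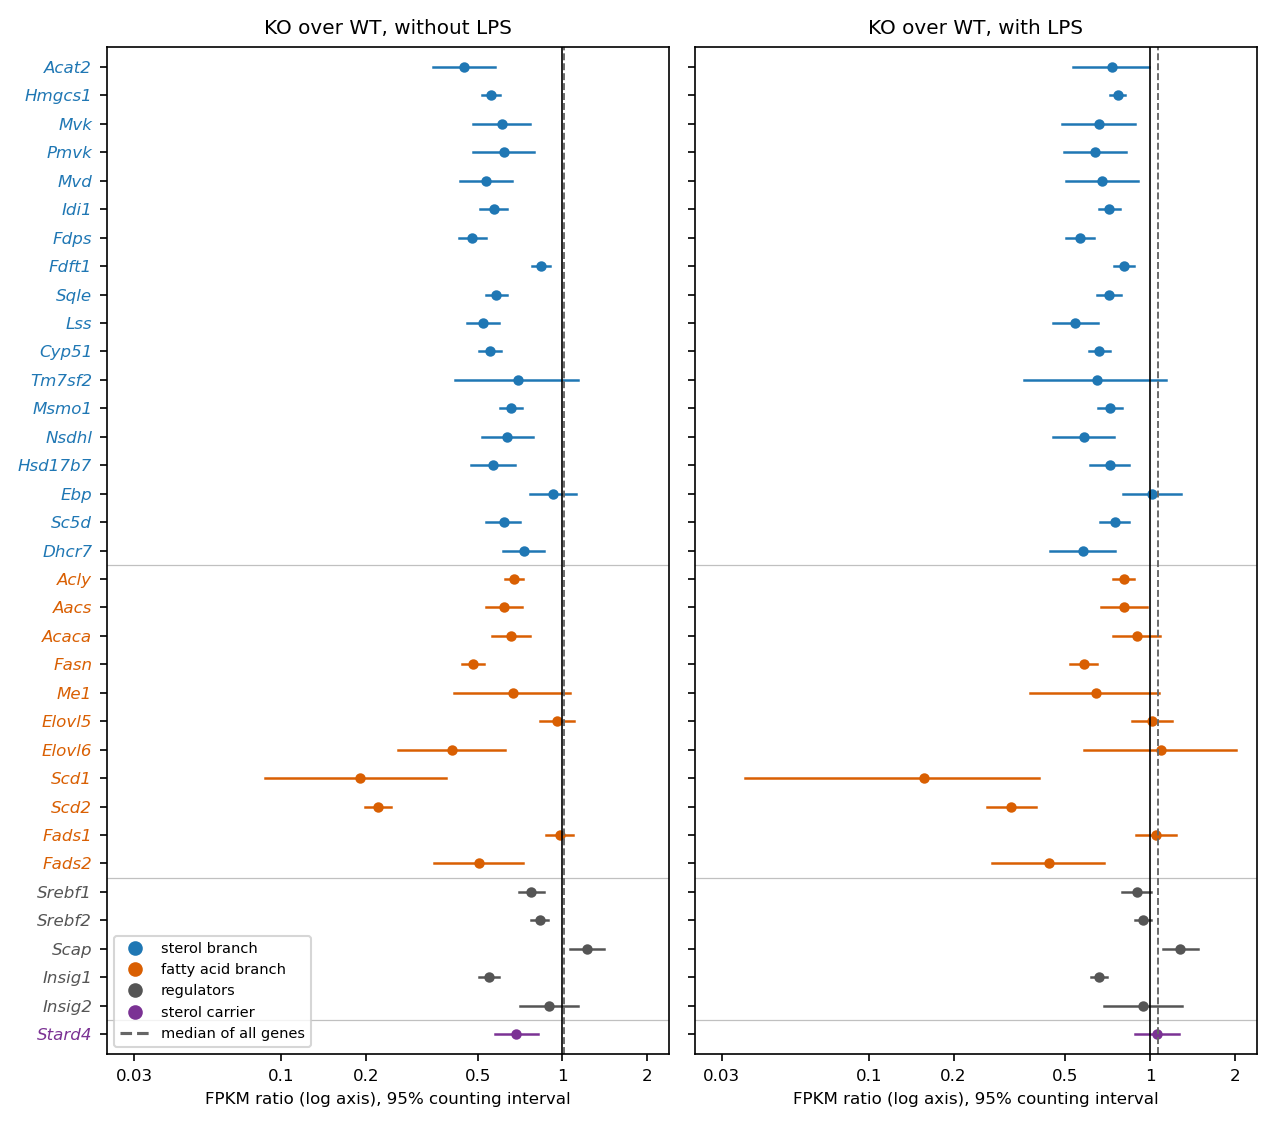
Ratio of FPKM in KO over WT for each of the 35 genes on a log axis, without LPS and with LPS, with exact 95% counting intervals as bars and 1 library per group. Without LPS the points of 34 genes lie below 1, and Scd1 and Scd2 lie furthest down at 0.191 and 0.221.

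All 18 sterol enzymes were lower in KO NT than WT NT, with ratios between 0.445 and 0.925. The early steps make mevalonate and activate it to isoprene units. Acat2, the cytosolic thiolase that joins acetyl-CoA, had 7.80 FPKM in KO NT, 17.5 FPKM in WT NT, 6.55 FPKM in KO LPS and 8.98 FPKM in WT LPS. Its ratio of KO NT to WT NT was 0.445 (interval 0.346 to 0.575), the lowest of the branch. Hmgcs1, the HMG-CoA synthase, was far more abundant, with 60.0 FPKM in KO NT, 108 FPKM in WT NT, 107 FPKM in KO LPS and 139 FPKM in WT LPS. For Hmgcs1 the KO NT to WT NT ratio was 0.558 (0.520 to 0.599). The kinases Mvk and Pmvk, which phosphorylate mevalonate in turn, had ratios of 0.608 and 0.619. Mvd, the decarboxylase that forms isopentenyl diphosphate, had 13.6 FPKM in KO NT, 25.4 FPKM in WT NT, 8.38 FPKM in KO LPS and 12.4 FPKM in WT LPS, which gave 0.535 (0.431 to 0.662) without LPS. Idi1, the isomerase of that product, had a ratio of 0.570 (0.510 to 0.638).

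The next enzymes join isoprene units into squalene and close its rings. Fdps, farnesyl diphosphate synthase, was at 68.0 FPKM in KO NT, 142 FPKM in WT NT, 68.5 FPKM in KO LPS and 122 FPKM in WT LPS. It was the second sterol gene past 2-fold, with a KO NT to WT NT ratio of 0.479 (0.430 to 0.534). Fdft1, squalene synthase and the step that commits to sterols, differed much less, at 67.8 FPKM in KO NT and 80.7 FPKM in WT NT, a ratio of 0.840 (0.783 to 0.902). Its annotated span overlaps that of Ctsb, a cathepsin gene at 2779 to 3691 FPKM, by 774 bases, and strand use in counting is not given, so Fdft1 values are uncertain. Sqle, squalene epoxidase, had 54.6 FPKM in KO NT against 93.7 FPKM in WT NT. Lss, lanosterol synthase, had 9.60 FPKM in KO NT, 18.4 FPKM in WT NT, 5.36 FPKM in KO LPS and 9.88 FPKM in WT LPS. The ratios of these enzymes without LPS were 0.583 for Sqle and 0.521 for Lss. A long noncoding RNA that overlaps Lss was at 3.32 FPKM or less in each library.

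The late enzymes trim lanosterol to cholesterol. Cyp51, the lanosterol demethylase, had 27.8 FPKM in KO NT, 50.3 FPKM in WT NT, 39.3 FPKM in KO LPS and 59.5 FPKM in WT LPS, and its ratio without LPS was 0.553 (0.503 to 0.607). Hsd17b7, the keto-reductase of the demethylation complex, had 0.568, and its partners Msmo1, the methyl oxidase, and Nsdhl, the decarboxylating dehydrogenase, had 0.657 and 0.637. Sc5d, the desaturase that precedes the last step of one route, was at 0.618, with 26.1 FPKM in KO NT against 42.2 FPKM in WT NT. Dhcr7, the reductase that yields cholesterol from 7-dehydrocholesterol, was at 0.728 (0.617 to 0.859). The intervals of 2 late enzymes included 1. Ebp, the sterol isomerase, had 22.1 FPKM in KO NT against 23.9 FPKM in WT NT. Tm7sf2, a sterol reductase, was at 3.45 FPKM in KO NT and 4.98 FPKM in WT NT, where few reads left an interval of 0.416 to 1.14. Apart from Fdft1, Dhcr7 and Ebp, every ratio of the branch lay between 0.445 and 0.693.

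**Figure D2:**
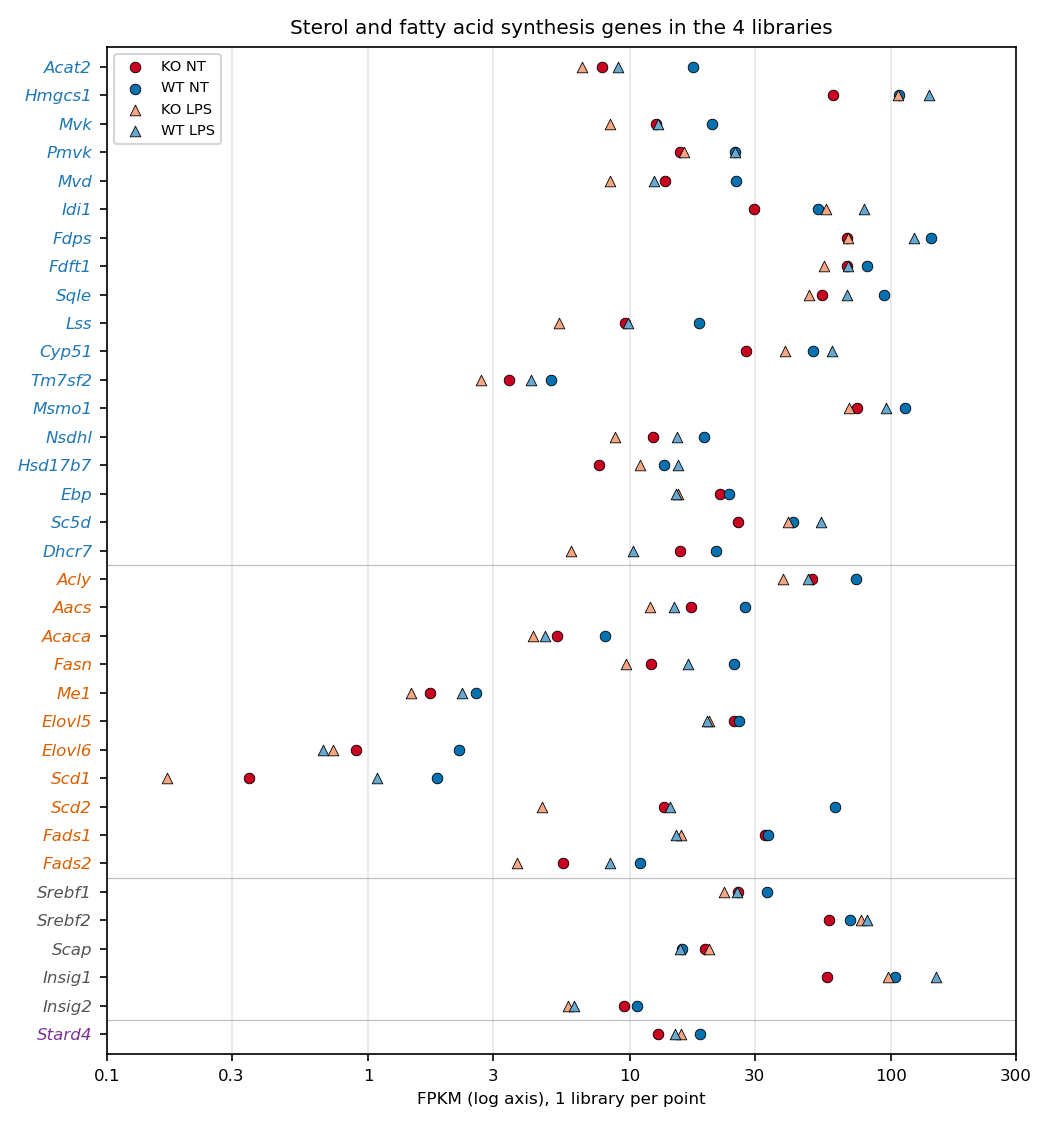
FPKM of each of the 35 genes in the 4 libraries on a log axis, by role, with 1 point per library. For most sterol enzymes the KO point lies below the WT point of the same treatment, and Scd1 is the lowest gene at 0.17 to 1.83 FPKM.

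Fatty acid genes varied more than sterol genes in the same comparison. Their ratios of KO NT to WT NT spread between 0.191 and 0.978. Scd1 and Scd2, paralogous desaturases that turn saturated into monounsaturated fatty acids, had the lowest ratios of all 35 genes. Scd2 was the main form in these cells, with 13.5 FPKM in KO NT, 61.2 FPKM in WT NT, 4.60 FPKM in KO LPS and 14.3 FPKM in WT LPS. Its ratio without LPS was 0.221 (0.199 to 0.246). The microRNA gene Mir5114, of 61 bases, lies within the span of Scd2 and was assigned 0.05 expected counts in KO NT and 4.18 in WT NT, against 423 in KO NT and 1912 in WT NT for Scd2 itself. Scd1 had 0.35 FPKM in KO NT, 1.83 FPKM in WT NT, 0.17 FPKM in KO LPS and 1.08 FPKM in WT LPS, and a ratio without LPS of 0.191 (0.0879 to 0.387). Scd1 reached the minimum of 1 FPKM only through its WT libraries and rests on 4.4 to 50.7 expected counts, some of them shared between close copies. Without Scd2 the fatty acid branch summed to 150.4 FPKM in KO NT against 211 FPKM in WT NT.

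Enzymes that build palmitate were lower in KO NT too. Acly, which splits citrate to acetyl-CoA for both branches, had 49.6 FPKM in KO NT, 73.4 FPKM in WT NT, 38.6 FPKM in KO LPS and 47.9 FPKM in WT LPS, a ratio without LPS of 0.675 (0.628 to 0.725). Acaca, acetyl-CoA carboxylase, stood at 0.656. Fasn, fatty acid synthase, had 12.04 FPKM in KO NT, 24.99 FPKM in WT NT, 9.66 FPKM in KO LPS and 16.7 FPKM in WT LPS. Its ratio without LPS was 0.482 (0.439 to 0.528), just short of 2-fold on the FPKM + 1 scale. Aacs, which activates acetoacetate for lipid synthesis, was at 0.621, and Me1, malic enzyme, a source of NADPH, at 0.667 with an interval of 0.412 to 1.06.

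Desaturases and elongases of longer chains did not share 1 pattern. Fads2, the delta-6 desaturase of polyunsaturated fatty acids, had 5.54 FPKM in KO NT, 10.9 FPKM in WT NT, 3.69 FPKM in KO LPS and 8.42 FPKM in WT LPS. The ratio of Fads2 without LPS was 0.507 (0.349 to 0.726). Fads1, its delta-5 partner, was nearly level, with 32.9 FPKM in KO NT, 33.7 FPKM in WT NT, 15.7 FPKM in KO LPS and 15.0 FPKM in WT LPS, and a ratio without LPS of 0.978 (0.876 to 1.09). The elongases differed in the same way. Elovl6, which extends palmitate, had 0.90 FPKM in KO NT, 2.23 FPKM in WT NT, 0.73 FPKM in KO LPS and 0.67 FPKM in WT LPS, a ratio without LPS of 0.404 (0.260 to 0.627). Elovl5, which extends polyunsaturated chains, had 25.03 FPKM in KO NT, 26.1 FPKM in WT NT, 20.0 FPKM in KO LPS and 19.8 FPKM in WT LPS, with a ratio of 0.958 (0.833 to 1.10). Like Scd1, Elovl6 passed 1 FPKM only in a WT library.

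Among the regulators, Insig1, which retains SCAP and SREBP in the endoplasmic reticulum and is itself an SREBP target, went with the sterol enzymes. It had 56.8 FPKM in KO NT, 103 FPKM in WT NT, 97.3 FPKM in KO LPS and 148 FPKM in WT LPS, a ratio without LPS of 0.549 (0.505 to 0.597). Insig2, the paralog with the same retaining role, had 9.53 FPKM in KO NT, 10.6 FPKM in WT NT, 5.78 FPKM in KO LPS and 6.10 FPKM in WT LPS, and its interval without LPS ran from 0.707 to 1.14. The SREBP genes were also lower in KO NT, by a smaller margin than Insig1. Srebf1 had 26 FPKM in KO NT, 33.5 FPKM in WT NT, 23.0 FPKM in KO LPS and 25.7 FPKM in WT LPS, with a ratio of 0.777 (0.6997 to 0.862) without LPS over all its transcripts. Srebf2 had 58.0 FPKM in KO NT, 69.8 FPKM in WT NT, 76.4 FPKM in KO LPS and 81.0 FPKM in WT LPS, with a ratio of 0.831 (0.776 to 0.890) without LPS. Scap, the escort protein, was the 1 gene whose interval lay above 1 in either state, with 19.4 FPKM in KO NT, 15.9 FPKM in WT NT, 20.0 FPKM in KO LPS and 15.6 FPKM in WT LPS. Its ratio was 1.22 (1.06 to 1.40) without LPS and 1.28 (1.11 to 1.48) with LPS, so both KO libraries lay above both WT libraries. Stard4 had 12.8 FPKM in KO NT against 18.6 FPKM in WT NT, a ratio of 0.686 (0.574 to 0.818).

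With LPS the pathway was still lower in KO than in WT macrophages, by a smaller margin. The sterol branch summed to 572 FPKM in KO LPS against 814 FPKM in WT LPS, and the fatty acid branch to 111 FPKM in KO LPS against 145 FPKM in WT LPS. Of the 34 genes with at least 1 FPKM in either library, all but Elovl6, 29 were lower in KO LPS, against 37.7% of the 10375 genes compared. The interval lay below 1 for 23 of them, against 9.5% of all genes and 11.7% of those with at least 50 expected counts, and above 1 for 1, Scap, against 21.2%. The median on the log2 scale was -0.48 for the sterol branch, -0.36 for the fatty acid branch and 0.079 for all genes. At least 2-fold lower were 2 genes, Scd2 and Fads2, against 1.12% of all genes, and 0 were at least 2-fold higher, against 1.45%. The neutrophil markers summed to 553 FPKM in KO LPS against 404 FPKM in WT LPS, and their part in this difference was not tested either.

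The same 23 genes had intervals below 1 in both states, against 5.14% of the 10045 genes compared in both. The NT and LPS comparisons use different libraries, but whether these came from the same cultures is not stated. They comprised 16 of the 18 sterol enzymes, all but Tm7sf2 and Ebp, together with Acly, Aacs, Fasn, Scd1, Scd2, Fads2 and Insig1. The lowest ratios of KO LPS to WT LPS were 0.157 (0.0363 to 0.403) for Scd1, 0.321 (0.264 to 0.392) for Scd2 and 0.438 (0.275 to 0.686) for Fads2. Scd1 had 4.4 expected counts in KO LPS against 29.8 in WT LPS and reached 1 FPKM only in the latter. It could thus be counted here only as lower in KO. In the sterol branch the lowest ratios were 0.543 (0.451 to 0.651) for Lss, 0.562 (0.501 to 0.629) for Fdps, 0.577 (0.441 to 0.751) for Dhcr7 and 0.581 for Nsdhl. Fasn stood at 0.580 (0.520 to 0.647) and Insig1 at 0.658 (0.614 to 0.704). The genes near 1 without LPS were near it again, with Ebp at 1.02, Elovl5 at 1.01, Fads1 at 1.05 and Insig2 at 0.948. Ebp and Elovl5 fell on one or the other side of 0 on the log2 scale depending on how the libraries were scaled. Another 5 genes, Acaca, Elovl6, Srebf1, Srebf2 and Stard4, had intervals below 1 without LPS and intervals that included 1 with it.

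Most genes had lower FPKM with LPS in both genotypes. The median log2 value of all genes was -0.42 for KO LPS against KO NT and -0.46 for WT LPS against WT NT, and this shift bears on every LPS value. The fatty acid branch lay near that shift in KO and below it in WT, with medians of -0.35 in KO and -0.61 in WT. The sterol branch lay above it, with medians of -0.19 in KO and -0.24 in WT. When libraries were scaled by their median ratio, the sterol medians turned to 0.20 in KO and 0.21 in WT, the fatty acid median in KO turned to 0.065 and that in WT stayed below 0 at -0.17. Apart from the fatty acid branch in WT, the sign of a branch's median LPS response thus depended on the scaling. Directions below are named only for genes that kept them under the 4 scalings tried. As deposited, 22 of 33 genes were lower in KO LPS than in KO NT, against 76.6% of all genes, and 27 of 35 were lower in WT LPS than in WT NT, against 78.3%. The intervals of 8 genes in KO and 6 in WT lay above 1, against 14.5% and 13.3% of all genes, and those of 17 in KO and 23 in WT lay below it, against 57.1% and 60.4%.

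**Figure D3:**
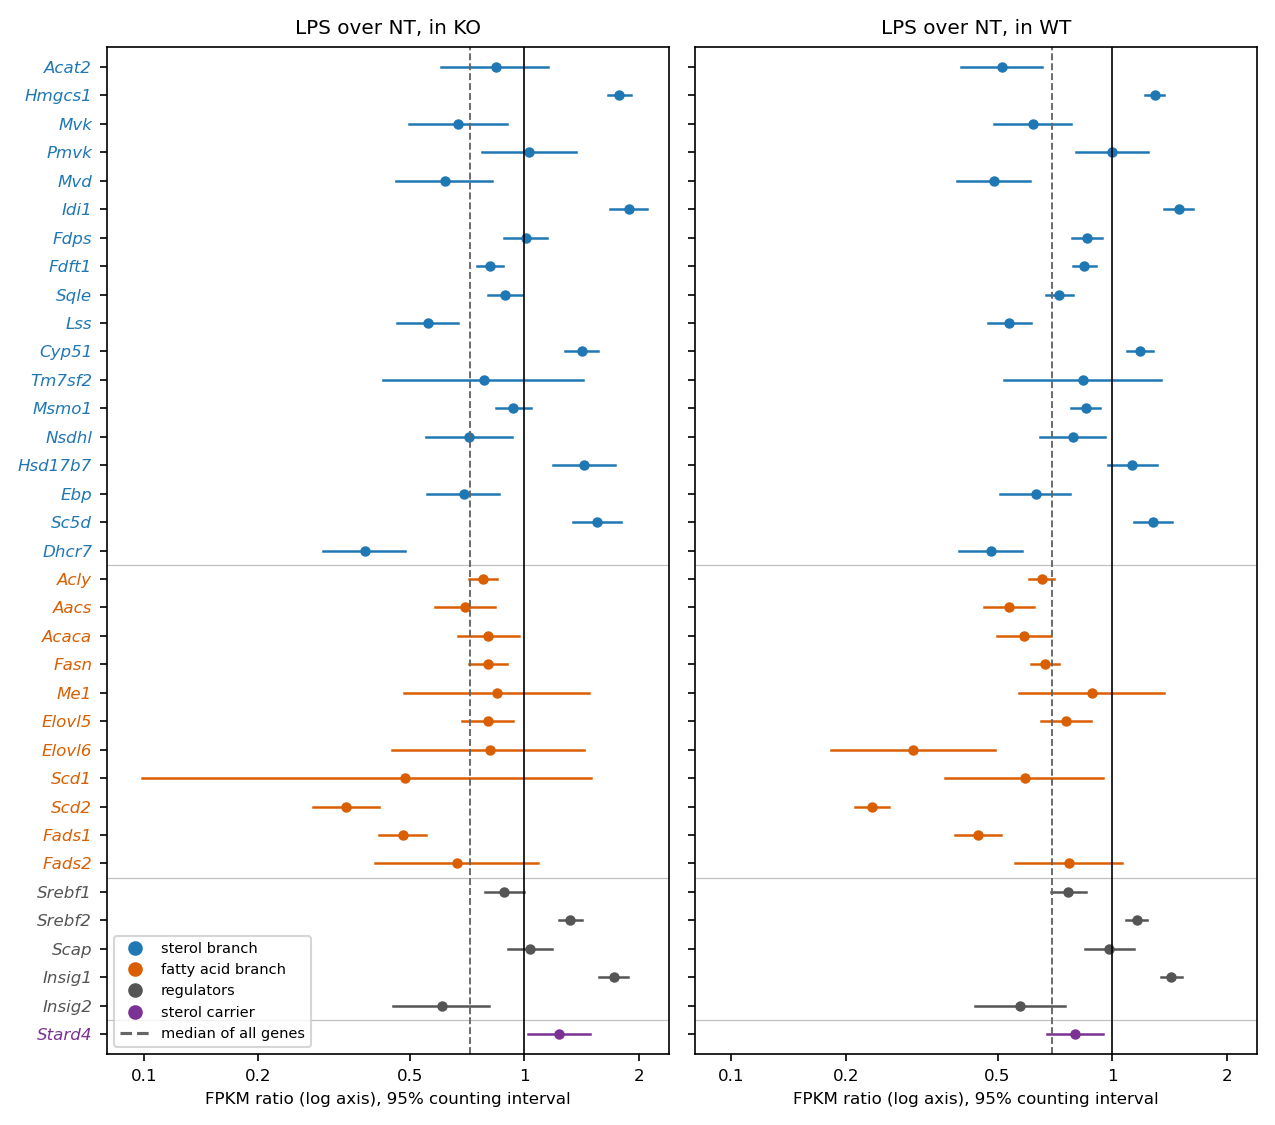
Ratio of FPKM in LPS over NT for each of the 35 genes on a log axis, in KO and in WT, with exact 95% counting intervals as bars and the median ratio of all genes marked, 0.718 in KO and 0.693 in WT. The intervals of Hmgcs1, Idi1, Cyp51, Sc5d, Insig1 and Srebf2 lie wholly above 1 in both genotypes. The lowest points are Scd2 and Dhcr7 in KO and Scd2 and Elovl6 in WT.

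Within the sterol branch, single steps differed in direction with LPS. Of the 33 genes with at least 1 FPKM in either library of each genotype, 7 were higher in both genotypes under all 4 scalings, against 16.7% of 10721 genes compared in this way. This count is near the background. The 7 genes were the enzymes Hmgcs1, Idi1, Cyp51, Hsd17b7 and Sc5d and the regulators Insig1 and Srebf2. Idi1 had 56.4 FPKM in KO LPS against 29.99 FPKM in KO NT, and 78.6 FPKM in WT LPS against 52.6 FPKM in WT NT, which gave ratios of 1.88 (1.68 to 2.10) in KO and 1.49 (1.37 to 1.63) in WT. Hmgcs1 had ratios of 1.78 (1.65 to 1.91) in KO and 1.29 (1.22 to 1.37) in WT. Insig1 had 1.71 in KO and 1.43 in WT, Sc5d 1.55 in KO and 1.28 in WT, and Cyp51 1.41 in KO and 1.18 in WT. The values of Srebf2 were 1.32 in KO and 1.16 in WT, and those of Hsd17b7 were 1.43 in KO and 1.13 in WT, where its interval of 0.976 to 1.31 included 1.

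Lower in both genotypes under all 4 scalings were 9 of the 33, a smaller share than the 44.6% of all genes. Of these Mvk, Mvd, Lss, Ebp and Dhcr7 belong to the sterol branch, Aacs, Scd2 and Fads1 to the fatty acid branch and Insig2 to the regulators. At least 2-fold lower as deposited were Scd2, Dhcr7 and Fads1 in KO, against 15.1% of all genes, and Scd2 and Fads1 in WT, against 17.2%. None was at least 2-fold higher by this rule in either genotype, against 6.61% of all genes in KO and 6.41% in WT. With median-ratio scaling these counts turned, to 0 lower and 4 higher in KO and to 1 lower and 1 higher in WT. Dhcr7 had 5.95 FPKM in KO LPS against 15.6 FPKM in KO NT, and 10.3 FPKM in WT LPS against 21.5 FPKM in WT NT, ratios of 0.381 (0.296 to 0.487) in KO and 0.480 (0.397 to 0.580) in WT. Fads1 had ratios of 0.478 (0.415 to 0.550) in KO and 0.445 (0.386 to 0.511) in WT, and Scd2 had 0.340 (0.278 to 0.415) in KO and 0.234 (0.211 to 0.260) in WT. The paralogs Insig1 and Insig2 thus moved apart, since Insig2 was at 0.607 (0.452 to 0.809) in KO and 0.574 (0.437 to 0.750) in WT. Another 17 genes had no single direction across scalings, among them Acly, Fasn, Acaca, Sqle, Fdps and Srebf1. Scd1 and Elovl6 were below 1 FPKM in both KO libraries, and in WT their ratios were 0.590 (0.363 to 0.946) for Scd1 and 0.3 (0.182 to 0.491) for Elovl6.

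The LPS responses of KO and WT were compared by the ratio of the ratios, KO over WT, for which all genes had a median of 1.05. It was above 1 for 28 of the 35 genes, against 59.1% of all genes. For most of the pathway the deficit of KO was thus narrower with LPS than without it. The 28 also hold genes to which this does not apply. Scap was higher in KO in both states, and Ebp, Elovl5, Fads1 and Insig2 had KO to WT intervals without LPS that included 1. The exact 95% interval of the ratio of ratios lay above 1 for 16 of the 35, against 11.3% of all genes, and below 1 for 0, against 4.76%. The median was 1.14 for the sterol branch, where 7 of 18 intervals lay above 1, and 1.19 for the fatty acid branch, where 6 of 11 did, so the branches differed little here. The highest value was that of Elovl6 at 2.70 (1.22 to 5.74), which rests on less than 1 FPKM in 3 libraries. Acat2 followed with 1.64 (1.08 to 2.44), then Stard4 with 1.54 (1.19 to 1.98), Scd2 with 1.45 (1.16 to 1.82) and Hmgcs1 with 1.37 (1.25 to 1.51). Acaca at 1.37, Aacs at 1.3, Idi1 at 1.26, Sqle at 1.23, Sc5d at 1.21, Fasn and Insig1 at 1.2, Cyp51 and Acly at 1.19, Fdps at 1.17 and Srebf2 at 1.14 completed the 16, the lower bound of Fdps lying just above 1. Dhcr7 had the lowest value, 0.792 (0.577 to 1.09).

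**Figure D4:**
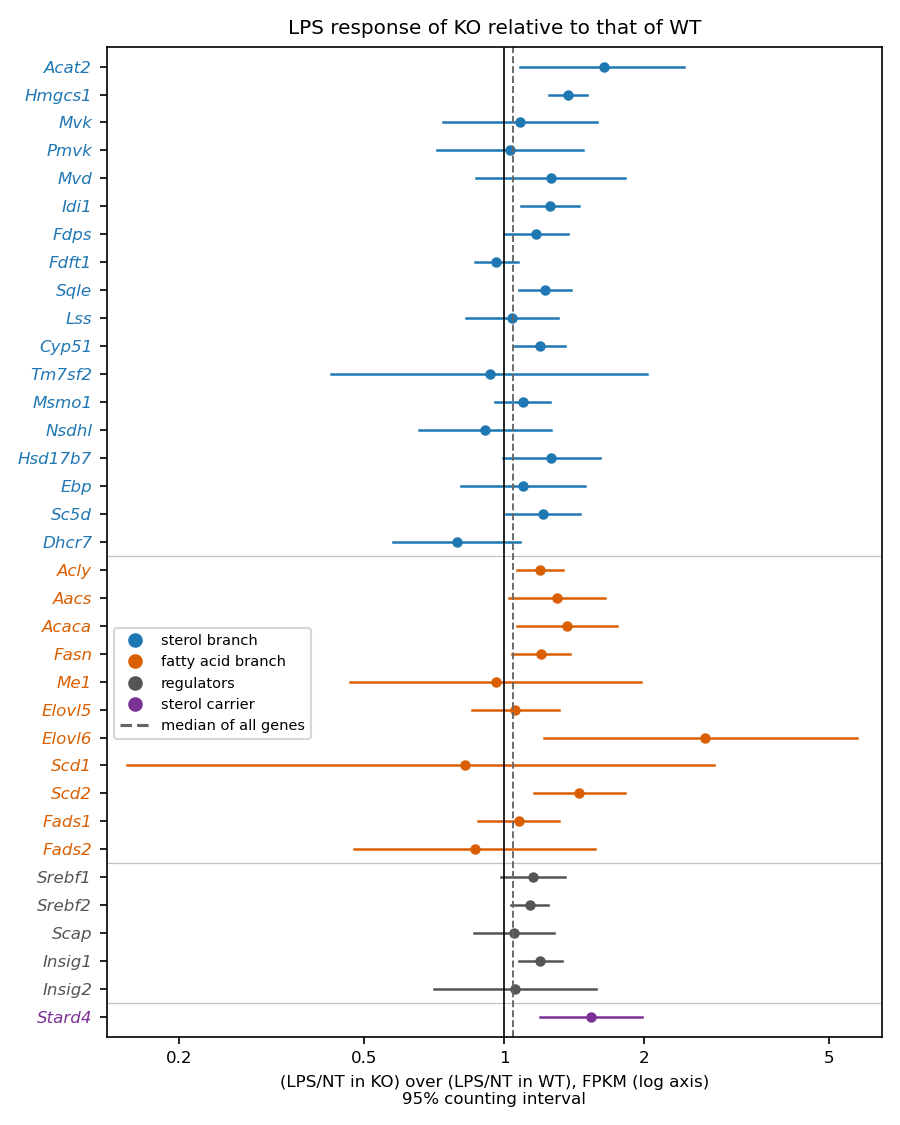
Ratio of the LPS responses, KO over WT, for each of the 35 genes on a log axis with exact 95% counting intervals as bars. The points of 28 genes lie above 1 and 16 intervals lie wholly above it, with Elovl6 the highest at 2.70 and Dhcr7 the lowest at 0.792.

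Other genes of sterol handling, a list of 23, had no common direction between genotypes. Of 21 with at least 1 FPKM, 12 were lower and 9 higher in KO NT than WT NT, with a median log2 value of -0.029, and 13 were lower and 8 higher in KO LPS than in WT LPS, where all genes had shares lower of 46.2% without LPS and 37.7% with it. Pdss1, which makes the side chain of ubiquinone, had a ratio of KO NT to WT NT of 0.730 with an interval of 0.481 to 1.10. With LPS, the ratio of KO to WT was 0.752 for Pdss1 and 0.789 for Npc2, which moves cholesterol out of lysosomes.

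Other genes of fatty acid metabolism, a list of 31, were more often lower than higher in KO. Of 23 with at least 1 FPKM, 18 were lower and 5 higher in KO NT than WT NT, with a median of -0.19, and of 21 with LPS 12 were lower and 8 higher, with a median of -0.14, beside the same all-gene shares of 46.2% and 37.7%. Acss2, which makes acetyl-CoA from acetate, had 2.17 FPKM in KO NT, 5.08 FPKM in WT NT, 1.81 FPKM in KO LPS and 3.68 FPKM in WT LPS, with ratios of 0.427 (0.279 to 0.642) without LPS and 0.492 (0.2998 to 0.788) with it. Mid1ip1, an activator of acetyl-CoA carboxylase, was at 0.665 without LPS and 0.612 with it. The NADPH-producing dehydrogenases of the pentose phosphate pathway were lower as well, Pgd at 0.658 without LPS and 0.676 with it, and G6pdx at 0.746 without LPS and 0.767 with it. Of LXR and oxysterol genes, a list of 12, 10 had at least 1 FPKM. Without LPS 8 were higher and 2 lower in KO NT, with a median of 0.25, where 53.3% of all genes were higher. With LPS 7 were higher and 3 lower in KO LPS, with a median of 0.30, where 62.1% of all genes were higher, so that this count is near the background. Pltp, a phospholipid transfer protein, had 546 FPKM in KO NT against 347 FPKM in WT NT, a ratio of 1.57 (1.51 to 1.64), and 416 FPKM in KO LPS against 291.5 FPKM in WT LPS, a ratio of 1.43 (1.36 to 1.496). Nr1h3, which encodes LXR alpha, had ratios of 1.25 (1.01 to 1.55) without LPS and 1.82 (1.40 to 2.36) with it, and Cyp27a1, a sterol hydroxylase that makes an oxysterol, had ratios of 1.46 without LPS and 1.502 with it. Apoc2, an apolipoprotein, was at 1.74 without LPS and at 1.23 (0.798 to 1.89) with it, and Abcg1, a cholesterol exporter, was at 1.39 with LPS. Not all members were higher in KO. Mylip, an LXR target that encodes a ubiquitin ligase, was at 0.863 without LPS and 0.779 with it, and Apoe, the main apolipoprotein of macrophages, was at 1.08 without LPS and 0.948 (0.933 to 0.962) with it. Ch25h, the hydroxylase that makes 25-hydroxycholesterol, a known suppressor of SREBP processing, was at 68.6 FPKM in KO LPS against 0.78 FPKM in KO NT, and at 68.7 FPKM in WT LPS against 1.04 FPKM in WT NT. With LPS its ratio of KO to WT was 0.998 (0.880 to 1.13).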

How the data were processed

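Total RNA of the 4 libraries was sequenced by Illumina HiSeq according to the labels' protocols. Bowtie, RSEM and the mm10 genome are named, without versions, per the submitters' processing notes. Not given in the sources used here: gene annotation, read filters and strand use. In each deposited table the authors gave, per gene, their expected count (reads shared between genes are split, so it need not be whole), an FPKM, and a gene length that is, per the file headers, another kind of value and was read only to compare libraries. Of the 35 genes, 26 had whole expected counts in all 4 libraries, and 9 (Acat2, Lss, Cyp51, Hsd17b7, Sc5d, Elovl6, Scd1, Scd2 and Fads2) had fractional ones, so their reads may be split with copies elsewhere. The lengths of 9 differed between libraries, by at most 1.03 times.

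Gene symbols were taken from RefSeq (GRCm38.p6), which matched 15897 of 15935 identifiers. A gene missing from a table was set to 0. Folds were taken on the log2 scale after adding 1 to each FPKM, where either library of a pair reached 1 FPKM, and a change of at least 2-fold was counted. Ratios of FPKM carry exact 95% Clopper-Pearson intervals on rounded counts, and ratios of ratios exact conditional intervals. The intervals of ratios were checked on counts simulated under the counting model they assume, for genes expected at 50 counts or more. The check thus does not bear on lower or fractional counts. The intervals of ratios of ratios were only compared with the scipy routine on a few example counts. Both kinds of interval cover counting error only, and may understate it, since PCR copies of a molecule are not independent. Expected counts of the 35 genes ran from 4.4 to 2791, and 30 genes had at least 50 in every library. With 1 library per group no test was made.

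All 35 genes are reported. Full values are given for those past 2-fold in a comparison and for paralog pairs, and for examples chosen after their values were seen. Of the other lists, up to 4 genes of at least 50 counts furthest from 0 were named, and a few that this covers are not reported here. The genes and lists were chosen with earlier results of these data known. The alternatives were pseudocounts of 0.1 and 5, no filter and a filter of 5 FPKM, 3 other scalings, size rules of 1.5-fold and 3-fold, and other choices of branch members. Leaving out genes with fractional counts or under 50 counts was added after the data were seen. Python 3.11.15, numpy 2.4.6, scipy 1.17.1 and pandas 2.3.3 were used.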

Additional observations from a re-analysis of the deposited data

Results flagged for a closer look

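Stard4, the sterol carrier gene, was drawn out because its LPS ratio lay on opposite sides of 1 in the genotypes. It was 1.23 in KO (15.7 FPKM in KO LPS against 12.8 FPKM in KO NT, interval 1.02 to 1.49) and 0.801 in WT (14.9 FPKM in WT LPS against 18.6 FPKM in WT NT, interval 0.676 to 0.948). With 1 library per group the difference was not tested between conditions. Scaled by the median ratio of the libraries, the log2 values were 0.68 in KO and 0.15 in WT, on the same side of 0.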

How the results depend on the processing

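No paired analysis was possible because each group has 1 library. The KO against WT medians of both branches stayed below 0 in both states under every alternative run, and the fatty acid median without LPS was -0.35 with a pseudocount of 5. The number of genes past 2-fold lower in KO NT against WT NT was 4 as reported, 2 with a pseudocount of 5, 21 at 1.5-fold and 1 at 3-fold. In KO LPS against WT LPS it was 2 as reported, 1 with a pseudocount of 5, 1 with equal FPKM sums, 11 at 1.5-fold and 0 at 3-fold. LPS values moved most with median-ratio scaling, which gave sterol medians of 0.20 in KO and 0.21 in WT, and fatty acid medians of 0.065 in KO and -0.17 in WT. In KO, genes at least 2-fold higher with LPS were 4 with that scaling and 4 at 1.5-fold. Genes lower in KO were 0 with that scaling, 0 with a pseudocount of 5, 6 at 1.5-fold and 0 at 3-fold. In WT, 1 gene was higher with that scaling. Genes lower in WT were 1 with that scaling, 5 with a pseudocount of 0.1, 1 with a pseudocount of 5, 4 with equal FPKM sums, 4 with CPM, 13 at 1.5-fold and 1 at 3-fold. Over all genes, those at least 2-fold higher and lower with LPS were 732 and 1668 in KO as deposited but 1073 and 752 with median-ratio scaling, and 703 and 1887 in WT but 1050 and 825. Between KO LPS and WT LPS, 150 were higher and 116 lower as deposited, 142 and 144 with median-ratio scaling and 232 and 116 with CPM. For KO NT against WT NT, 102 were higher and 97 lower as deposited, and 153 and 143 with CPM. The cause was not tested. Depth limits Scd1, Elovl6, Me1 and Tm7sf2 most, and no interval here holds the spread between cultures or animals.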
